A study of Mus musculus with 73 samples.

Results

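DNA methylation was compared between livers of adult mice that had lost the FoxA genes in adulthood and livers of virus-injected controls, after partial hepatectomy in both groups. Methylation was read by reduced representation bisulfite sequencing (RRBS), which samples CpG-rich fragments of the genome, and was deposited as 1 level per 100 bp tile. The nulls are labelled FoxA double null in adulthood, with partial hepatectomy afterwards (3 libraries), and the controls had received AAV GFP, an adeno-associated virus carrying a green fluorescent protein gene, before partial hepatectomy (2 libraries). All 5 libraries were made from hepatocyte DNA of liver at 12 weeks of age. The members were the 482859 of 817277 tiles with a level in all 5 libraries, and 5 of the 27 RRBS libraries and of the 73 samples of the series were involved.

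The labels of these libraries do not name the alleles of the nulls or controls, the agent that deleted the genes, the virus dose, the interval to surgery or the time of regrowth. The whole-genome bisulfite (WGBS) libraries used below came from Foxa1L/L;2L/L mice with AAV Cre (adult nulls) or Alfp Cre (developmental nulls) and from Foxa1L/L;2L/L controls. The other RRBS libraries used below were developmental double nulls and controls, 4 of each, taken at 20 days, 8 weeks, 4 months and 6 months. They also included adult triple nulls 7 days (n = 3, 9 weeks old) and 13 days (n = 2, 12 weeks old) after Cre induction, with the same numbers of controls induced with GFP, labelled FoxA1L/L;FoxA2L;L;FoxA3-/-. Those controls thus lacked Foxa3 as well. Both groups had the operation, so the comparison is of FoxA loss among operated mice and not of the operation. A methylation table cannot show how completely the genes were deleted, and no marker of cell type could be read from it.

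The products of Foxa1 and Foxa2 are forkhead transcription factors that bind closed chromatin early in liver development and help other hepatocyte factors to reach their sites. Active enhancers in hepatocytes usually carry little CpG methylation. Methylation patterns are copied to the new strand when DNA is replicated, mainly by the maintenance methyltransferase Dnmt1, and can be removed by TET enzymes or be diluted when copying fails. After partial hepatectomy the hepatocytes of the remaining lobes re-enter the cell cycle and divide until liver mass is restored, so that methylation must be copied again in cells that were quiescent.

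Global methylation was nearly the same in nulls and controls. The mean level over all tiles was 57.2%, 57.4% and 57.7% in the 3 nulls, against 57.3% and 57.6% in the 2 controls. The groups overlapped, with a difference of -0.0239 percentage points (p = 1 by a two-sided exact permutation test over libraries). The two-sided p is the doubled smaller tail, so the 3 by 2 design cannot give a p below 0.2 in this test, for any class of tiles. In the nulls 27%, 26.9% and 26.9% of tiles lay below 10% methylation, against 26.9% and 27.2% in the controls. Mean differences on the 19 autosomes ranged from -0.238 to 0.0536 points. The table held no tile on another chromosome.

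Single libraries differed as much within groups as between them. Levels across the 482859 tiles correlated between any pair of the 5 libraries with r from 0.973 to 0.975 (a description across tiles, which share the genome and the assay). The mean absolute difference at a tile was 5.62 to 5.85 points over the 10 pairs. The pooled standard deviation at a tile was 6.33 points among nulls and 6.15 points among controls. The spread depended on the level, for which the mean of the triple null controls was taken at tiles with a value in all of them. It was 2.12 and 2.07 points at tiles below 10%, against 9.71 and 9.53 points at tiles of 40% to 60%, in hepatectomy nulls and controls each time. A difference of a few points at 1 tile is therefore within the spread of these libraries, and the classes of tiles below are compared by their mean per library. The labels do not say whether the libraries of a group came from separate mice, so the spread may be partly technical. Coverage was not given and the depth behind each level is unknown.

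Methylation lay higher in the nulls at the FoxA sites that were hyper-methylated after developmental loss. The authors' list of hyper-methylated FoxA sites holds sites of 400 bp chosen in WGBS of developmental nulls, and 155 tiles lay wholly inside 111 of them. Their mean level was 25.2%, 27% and 27.7% in the nulls, against 23.3% and 21.7% in the controls. Every null library was above both control libraries. The means were 26.6% ± 1.29 (SD, n = 3) in nulls and 22.5% ± 1.13 (SD, n = 2) in controls, which differ by 4.15 points (p = 0.2 by exact permutation, the lowest this test allows). Over the 92 list tiles with a value in all 27 libraries the levels were 23.6%, 24.8% and 26.4% in nulls, against 22.8% and 21.7% in controls, still without overlap but with a smaller difference of 2.70 points. A level is an average over many cells, so a small change in most cells and a large change in a few cannot be told apart.

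The shift was seen at most list tiles but was uneven in size. Over the 92 list tiles with a value in all 27 libraries, 63 were higher in the nulls. Their median difference was 2.55 points and their mean difference 2.70 points, against a mean of 4.15 points over all 155. Tiles that lacked a value in some other library thus added more than their share. Of the 155 tiles, 108 had a higher mean in the nulls and 47 a lower one, where 48.5% of all tiles were higher and 48.9% lower. All 3 nulls lay above both controls at 32 list tiles (20.6%), against 8.69% of all tiles. They lay below both controls at 9 list tiles (5.81%), against 9.0% of all tiles. The median difference was 2.89 points in the list and 0 over all tiles. By the moderated test of limma, 7 list tiles were higher and 0 lower at an unadjusted p under 0.05, where 2.37% and 2.3% of all tiles were. No list tile passed Benjamini-Hochberg adjustment over all tiles. The mean of the list was higher in nulls on 18 of 19 chromosomes, the exception being chromosome 13 with 5 tiles and -2.11 points.

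At the list tiles whose sites differed most in WGBS, the levels after hepatectomy were below those of every developmental null in RRBS. The tile at chromosome 16, 32462101 to 32462200 (mm9), lies in a site with 88.3% and 86.1% in WGBS of developmental nulls, against 12.2% and 18.3% in controls. After hepatectomy it had 36.7%, 34.6% and 25.0% in the nulls, against 16.7% and 21.1% in the controls, and the groups did not overlap. At chromosome 1, 129252401 to 129252500, it was 11.1%, 7.50% and 9.09% in nulls, against 5.00% and 6.25% in controls, again without overlap. Developmental nulls had 85% to 100% at that same tile. At chromosome 14, 77149201 to 77149300, the nulls had 28.6%, 11.1% and 57.1% and lay on both sides of the controls with 33.3% and 28.6%. A pair of neighbouring tiles at chromosome 3, 121171801 to 121172000, sits in 1 site with 69.6% and 64.3% in WGBS of developmental nulls, against 13.0% and 17.9% in controls. Its first tile had 8.57%, 10.8% and 8.00% in nulls, against 10.0% and 5.71% in controls, with overlap. Its other tile had 10.2%, 3.77% and 10.5% in nulls, against 1.82% and 4.44% in controls, also with overlap. None of these 5 tiles passed the adjusted test.

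The list tiles with the largest differences after hepatectomy are given as a description, since they were chosen for their values. The tile at chromosome 8, 122460801 to 122460900, had 70.0%, 66.7% and 58.8% in nulls, against 25.0% and 15.8% in controls. The tile at chromosome 14, 35054101 to 35054200, had 50.0%, 50.0% and 54.5% in nulls, against 13.6% and 27.3% in controls. The tile at chromosome 5, 92540201 to 92540300, had 39.1%, 68.8% and 56.5% in nulls, against 28.6% and 22.2% in controls. At all 3 the nulls were clear of the controls, and at the first the triple null controls of day 7 ranged from 55.6% to 72.7%, as high as the hepatectomy nulls. At the chromosome 5 tile those controls had 68.4% to 73.7%, and the 21 other libraries with a value had 52% to 100%, all above both hepatectomy controls. At the chromosome 14 tile the 13 other libraries had 0% to 62.5%, with a median of 12.5%. In the other direction, the tile at chromosome 11, 115105201 to 115105300, had 6.52%, 14.8% and 8.33% in nulls, against 37.5% and 24.6% in controls. The tile at chromosome 6, 121205701 to 121205800, had 30.6%, 54.0% and 44.6% in nulls, against 65.0% and 50.0% in controls. The tile at chromosome 8, 129330201 to 129330300, had 13.0%, 2.70% and 8.33% in nulls, against 19.2% and 18.8% in controls. The groups overlapped at the chromosome 6 tile and not at the other two.

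The difference was smaller outside the listed sites. At the 90 tiles 1 to 100 bp outside them, nulls had 57.1% ± 1.71 and controls 54.9% ± 0.664, a difference of 2.22 points without overlap. From 101 to 300 bp the difference was 0.405 points over 184 tiles, and from 301 to 500 bp 0.321 points over 187 tiles, both with overlapping groups. Between 501 bp and 50000 bp the 5 bins differed by 0.0768 to 0.551 points. In the developmental comparison the difference at the same distances was 21.4 points inside the sites (103 tiles), 16.3 points at 1 to 100 bp (47 tiles) and 9.31 points at 101 to 300 bp (115 tiles). At those same tiles the hepatectomy difference was 2.54 points inside, 2.12 points at 1 to 100 bp and 0.659 points at 101 to 300 bp, so that the step at the site border was smaller than over all tiles. The developmental difference was 1.59 points at 1001 to 2000 bp, where the hepatectomy difference at the same tiles was 0.182 points. Tiles outside listed sites were more methylated in controls, so the level changes with the distance as well. Among tiles of 10% to 60% in the triple null controls the differences after hepatectomy were 4.31 points inside (77 tiles), 3.24 points at 1 to 100 bp (24 tiles, groups overlapping) and 1.76 points at 101 to 300 bp (34 tiles). Further out they were 0.547 to 1.46 points without a steady decline, and at 10001 to 50000 bp 0.691 points without overlap (3601 tiles).

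**Figure D1:**
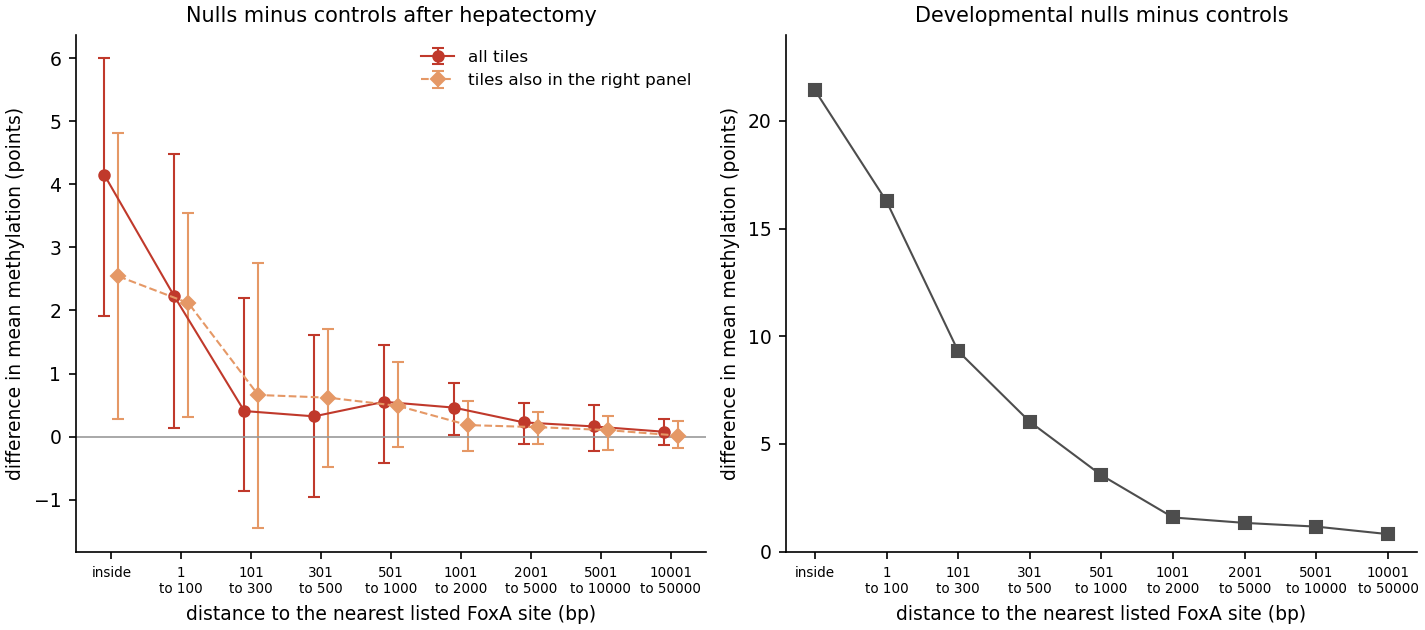
Mean difference in methylation, in percentage points, by distance in bp from the nearest site of the hyper-methylated list, for hepatectomy nulls minus controls (left; all tiles in red, the tiles also measured in the age series in orange) and developmental nulls minus controls in RRBS (right, on its own scale). Bars on the left run from the lowest null minus the highest control to the highest null minus the lowest control. Inside the sites the differences were 4.15 points over all tiles and 2.54 points at the shared tiles, against 21.4 points in developmental nulls.

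FoxA sites outside the list were low in both groups. The 4432 tiles inside them had 8.10%, 8.36% and 8.64% in nulls, against 8.89% and 7.72% in controls. The controls lay on either side of the nulls, and the difference was 0.0594 points (exact permutation p = 1). The share of tiles with all nulls above both controls was 7.04%, and with all below 7.72%, both under the shares of all tiles. The median difference was 0, the same as over all tiles. Where these tiles were themselves of intermediate level, 20% to 40% in the triple null controls, 127 tiles had 23.6% ± 0.322 in nulls and 22.0% ± 0.269 in controls without overlap, but 63 of them were higher and 64 lower. The 437056 tiles over 2000 bp from any FoxA site differed by -0.0464 points, with 60.3% ± 0.275 in nulls and 60.4% ± 0.319 in controls (exact permutation p = 1).

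HNF6 (Onecut1) is a homeodomain factor of hepatocytes and bile ducts, mapped in the same series by chromatin immunoprecipitation. The 56 tiles in regions with an HNF6 peak in all 3 control lists had 8.10%, 9.61% and 9.31% in nulls, against 12.1% and 7.59% in controls. The controls were further apart than the group means, which differed by -0.816 points (exact permutation p = 0.8). The nulls were above both controls at 5 tiles (8.93%) and below both at 4 (7.14%), close to the 8.69% and 9.0% of all tiles.

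A larger class, taken from RRBS itself, moved in the same direction as the list. Gained tiles were those at least 20 points higher in developmental nulls than in their controls with an adjusted p under 0.05 by limma. They numbered 343 of 369462 tiles tested (0.0928%), and 342 had values in all 5 hepatectomy libraries. The hepatectomy libraries entered that choice only through the estimate of the spread. Their mean level was 34.3%, 34.8% and 34.3% in the hepatectomy nulls, against 30.9% and 29.4% in the controls. The 3 nulls were close together and all above both controls. The means of 34.4% ± 0.3 (SD, n = 3) and 30.1% ± 1.06 (SD, n = 2) were 4.30 points apart (p = 0.2 by exact permutation, the lowest this test allows).

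Of the 342 gained tiles, 248 were higher in the hepatectomy nulls and 94 lower, and the median difference was 3.87 points against 0 over all tiles. All nulls were above both controls at 98 tiles (28.7%) and below both at 19 (5.56%), where all tiles had 8.69% and 9.0%. At an unadjusted p under 0.05 by limma, 14 were higher and 1 lower, where 2.37% and 2.3% of all tiles were. None passed the adjustment. The tiles fell into 302 loci when those within 1000 bp were joined. The locus mean was higher in the nulls at 222 of them, with all nulls above both controls at 89 and below both at 15. Loci were formed only within the chosen classes, so these counts have no share over all loci beside them and are a description. The mean was higher in nulls on all 19 chromosomes, from 0.751 points on chromosome 17 to 8.43 points on chromosome 16.

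Most gained tiles were not at FoxA sites, and those far from them differed as well. Only 20 of the 342 lay inside listed sites, where the nulls had 21.1% and the controls 17.0%, a difference of 4.14 points. Another 4 lay in other FoxA sites, with 18.3% in nulls and 14.5% in controls. The 89 tiles outside sites but within 2000 bp of one had 28.9% in nulls and 25.3% in controls, a difference of 3.52 points. The 229 tiles over 2000 bp away had 38.1% in nulls and 33.4% in controls, a difference of 4.62 points. Conversely, the 135 list tiles that were not in the gained class had 27.5% in nulls and 23.3% in controls, a difference of 4.15 points. The list's shift was thus not confined to the tiles the classes share. However, only 103 of the 155 list tiles were measured in the age series, and these differed by 2.54 points after hepatectomy. The 135 therefore include tiles that could not be called gained.

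**Figure D2:**
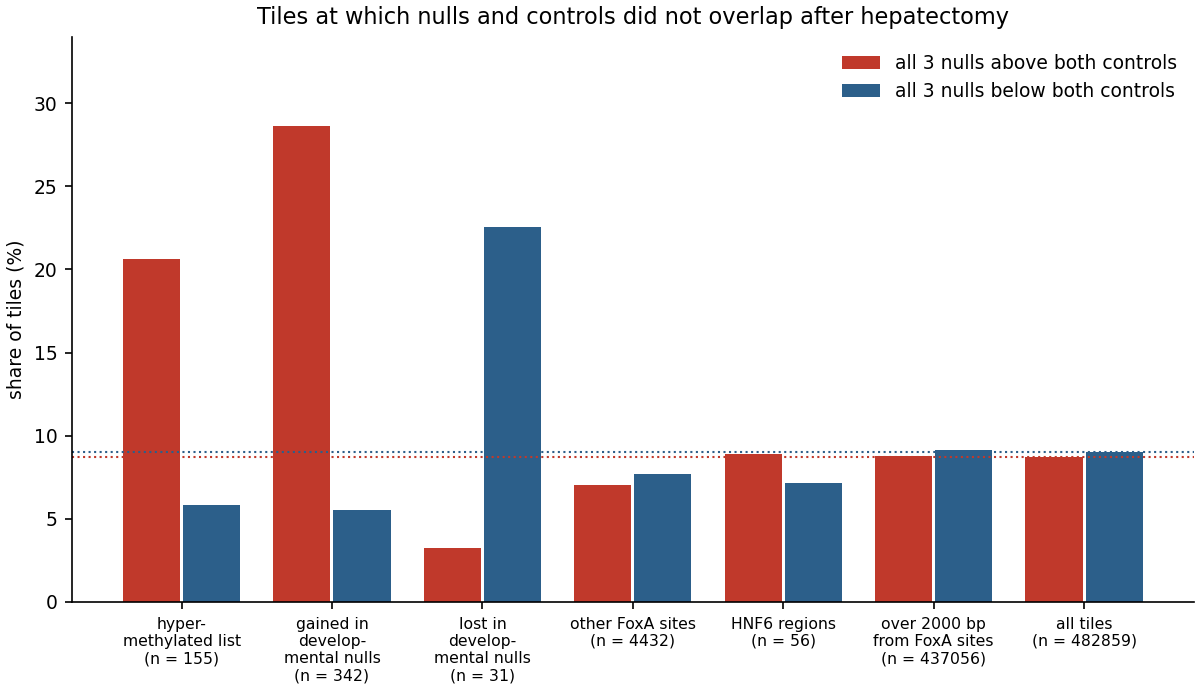
Share of tiles, in percent, at which all 3 hepatectomy nulls lay above both controls (red) or below both controls (blue), by class of tile; dotted lines are the shares over all tiles. Listed and gained tiles had 20.6% and 28.7% above, lost tiles 22.6% below, and the other classes stayed near 8.69% and 9.0%.

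The gained tiles with the largest developmental difference showed the range of responses. At chromosome 7, 73746001 to 73746100, the hepatectomy nulls had 20.3%, 14.7% and 10.3%, against 4.55% and 0% in controls, while developmental nulls had 82.2% to 96.6%. At chromosome 14, 66336901 to 66337000, the nulls had 20.0%, 26.1% and 31.6%, against 0% and 10.3% in controls. At chromosome 10, 19852901 to 19853000, the nulls had 18.8%, 21.9% and 14.3%, against 10.9% and 13.2% in controls. The groups were separate at these 3 tiles. At chromosome 1, 180180101 to 180180200, the nulls had 26.5%, 55.0% and 53.8% and overlapped the controls with 27.6% and 21.9%. At chromosome 4, 102228701 to 102228800, the nulls had 17.1%, 25.5% and 18.5% and lay around the controls with 21.7% and 16.1%. The adjusted p from limma was 1 at all 5, and the differences had standard errors of 4.53 to 15.4 points. The triple null controls of day 7 had 53.1% to 73.4% at the chromosome 7 tile and 35% to 68% at the chromosome 14 tile. Both ranges lay above all hepatectomy nulls and controls. At the chromosome 10 tile the triple null controls of day 7 had 11.6% to 14.7%, near the hepatectomy controls.

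Tiles that had lost methylation in developmental nulls lay lower in the hepatectomy nulls. Only 31 tiles (0.00839%) were at least 20 points lower in developmental nulls past the same threshold. They had 56.9%, 56.9% and 56.9% in the hepatectomy nulls, against 60% and 63.1% in controls. The nulls were almost equal to each other, with 56.9% ± 0.0442 (SD, n = 3) against 61.6% ± 2.15 (SD, n = 2) in controls. The difference was -4.65 points (p = 0.2 by exact permutation, the lowest this test allows). The small SD of the nulls depends on the tiles taken. It was 0.460 over the 28 tiles with a value in all 27 libraries and 0.553 over the 27 tiles more than 2000 bp from FoxA sites. Of the 31 tiles, 23 were lower and 8 higher. All nulls were below both controls at 7 (22.6%) and above both at 1 (3.23%), where all tiles had 9.0% and 8.69%. The median difference was -3.08 points, smaller in size than the mean, which includes 1 tile at -53.8 points.

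The lost tile with the largest developmental difference also differed most after hepatectomy. At chromosome 4, 43428801 to 43428900, 7197 bp from a FoxA site, the nulls had 32.6%, 11.9% and 30.3%, against 82.4% and 75% in controls. Developmental nulls had 0% to 37.0% there, and their controls 77.3% to 92.0%. The difference of -53.8 points after hepatectomy (SE 11.5) had an unadjusted p of 0.00015 by limma and an adjusted p of 0.341. The triple nulls of day 13 had 10.8% to 18.9%, against 44.4% to 50.0% in their controls, while those of day 7 had 29.0% to 39.3%, against 23.3% to 29.0%. Around the chromosome 4 tile, the 13 other tiles within 1000 bp averaged 90.8% in hepatectomy nulls and 91.5% in controls. At 2 of them all nulls were below both controls. Both neighbouring tiles at chromosome 17, 26141701 to 26141900, averaged lower in the hepatectomy nulls, by -14.6 and -11.6 points, with overlapping groups. At chromosome 12, 25949801 to 25949900, the nulls had 59.6%, 78.0% and 64.9%, all below the controls with 78.9% and 82.5%. At chromosome 2, 167711901 to 167712000, the nulls with 62.5%, 66.7% and 80% overlapped the controls with 54.5% and 78.3%.

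Across all tiles tested in the age series, the mean difference after hepatectomy followed the size and sign of the developmental difference. Tiles were binned whether or not they had passed a test, and the library means of the groups overlapped in several bins. The 182 tiles that were 40 points or more higher in developmental nulls had 31.0%, 34% and 33.0% in the hepatectomy nulls, against 26.6% and 23.2% in controls. All nulls were above both controls, the means differed by 7.71 points, and 33.0% of these tiles had every null above both controls, against 2.75% with every null below. The 1975 tiles 20 to 40 points higher differed by 2.62 points and the 9750 tiles 10 to 20 points higher by 0.489 points, both with overlap of the library means. The 345678 tiles within 10 points differed by -0.0607 points, with overlap. On the other side, the 4658 tiles 10 to 20 points lower in developmental nulls differed by -0.463 points, again with overlap. The 499 tiles 20 to 40 points lower had 54.6%, 54.4% and 55.6% in hepatectomy nulls, against 57.5% and 58.3% in controls. This was a difference of -3.08 points without overlap. The 24 tiles lower by 40 points or more, with the lost tile at chromosome 4 among them, differed by -14.4 points, also without overlap.

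**Figure D3:**
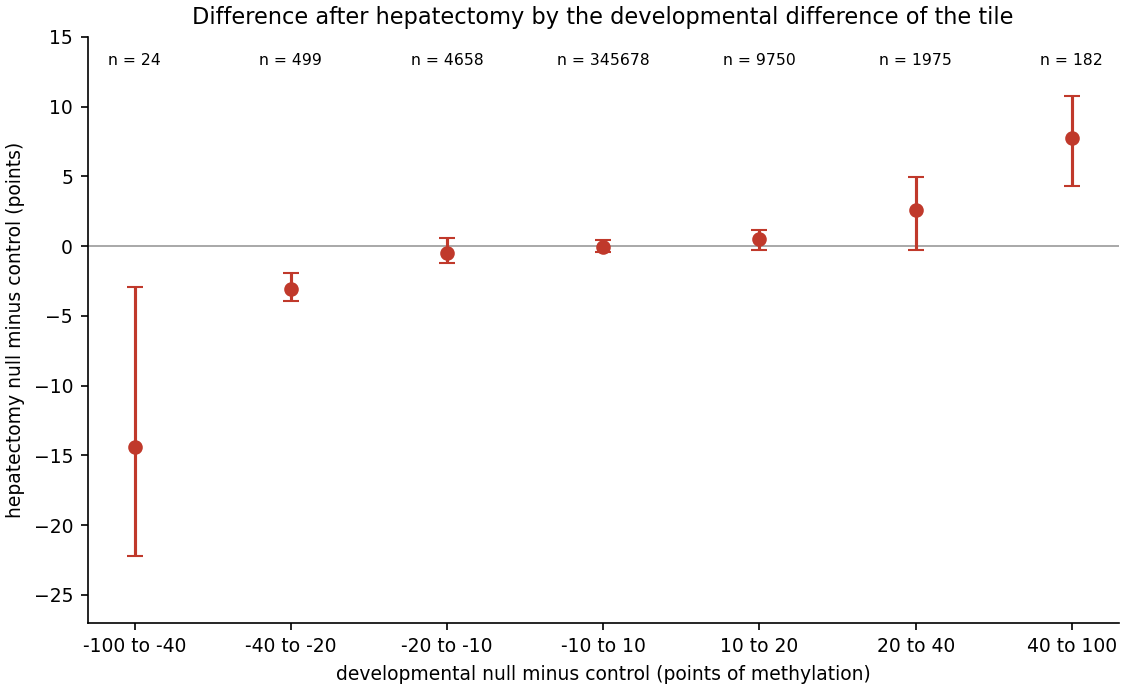
Hepatectomy null minus control, in percentage points, for tiles binned by the difference between developmental nulls and their controls; n is the number of tiles. Points are differences of group means and bars run from the lowest null minus the highest control to the highest null minus the lowest control. The difference goes from -14.4 points in the lowest bin through -0.0607 points in the middle to 7.71 points in the highest.

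The size of the difference after hepatectomy was a small part of the developmental one. It was 11.6% of it at gained tiles (4.30 of 37.0 points), 14% at lost tiles (-4.65 of -33.1 points) and 11.9% at the 103 list tiles measured in both. The value at lost tiles includes the tile at -53.8 points, and the median share over lost tiles was 12.2%. Across the 342 gained tiles the differences correlated with r = 0.290 and Spearman's rho = 0.253, and across 362766 tiles with r = 0.0551. These are descriptions across tiles within the same libraries, with no test. The 2 comparisons share no library.

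In the other adult RRBS experiments nulls did not lie above their controls at these tiles, and the level of the controls was not the same. Over the 318 gained tiles measured in all 15 adult libraries, hepatectomy nulls had 33.5% ± 0.307 and controls 29.1% ± 1.19. Triple nulls of day 7 had 38.4% ± 1.61 and their controls 39.6% ± 0.655, and triple nulls of day 13 had 41.6% ± 1.02 and their controls 42.8% ± 1.84. The null minus control differences were 4.34 points after hepatectomy, -1.18 points at day 7 and -1.17 points at day 13, with overlapping groups at both days. Both hepatectomy groups thus lay below every triple null and triple control library, and the hepatectomy controls were further from the controls of day 7 and of day 13 than from the hepatectomy nulls. At the 117 list tiles the differences were 3.65, -1.30 and -1.76 points. Hepatectomy nulls had 25.2% there and their controls 21.6%, against 26.2% and 29.0% in the controls of day 7 and day 13. At the 30 lost tiles the differences were -4.92, -2.21 and -5.33 points, so there the nulls were lower in each experiment, without overlap after hepatectomy and at day 13. Hepatectomy nulls had 56.5% there and their controls 61.4%, both above the 50.8% and 52.2% of the controls of day 7 and day 13.

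The difference after hepatectomy exceeded that of day 7 by 5.52 points at gained tiles (exact permutation within experiments, p = 0.02) and by 4.96 points at list tiles (exact permutation p = 0.02). Against day 13 the excess was 5.51 points at gained tiles (exact permutation p = 0.0333) and 5.41 points at list tiles (exact permutation p = 0.0667). These were 14 such tests over 7 classes, and the lowest Benjamini-Hochberg adjusted p was 0.14, so none passed. Null and control labels were shuffled within both experiments, and splits were counted by the absolute size of the excess. A small p can thus come from the hepatectomy difference alone, and whether the differences are equal was not tested. The triple null experiments also differed in Foxa3 and in surgery, and at day 7 in age (9 weeks, against 12 weeks), which cannot be told apart.

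**Figure D4:**
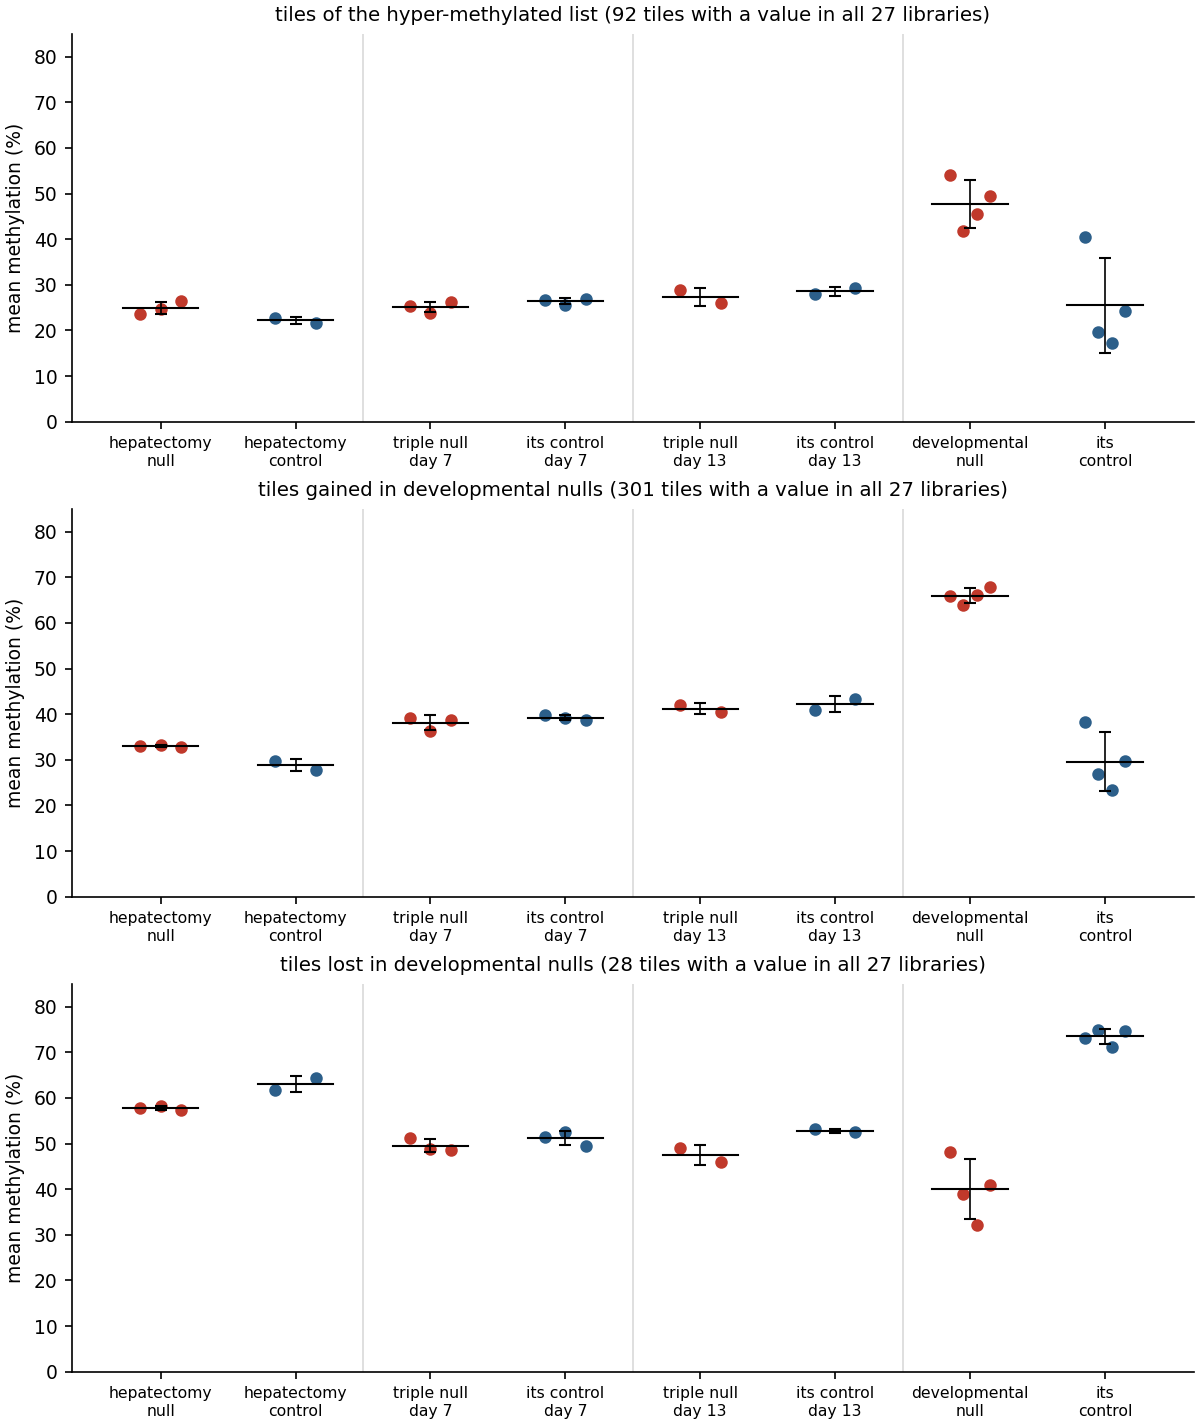
Mean methylation in percent per library (points) with the group mean and SD (lines and bars), nulls in red and controls in blue, for listed, gained and lost tiles with a value in all 27 libraries. Gained tiles averaged 33.0% in hepatectomy nulls and 28.8% in hepatectomy controls, against 66.0% in developmental nulls and 29.6% in their controls.

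WGBS gave adult nulls without hepatectomy at the same sites. The adult WGBS covered 97 of the listed sites that hold tiles here. Over them adult nulls had 29.6% and 29.7%, against 26.1% and 29.0% in controls. Both adult nulls lay above both controls, with a difference of 2.14 points, less than the gap between the controls. The listed sites were chosen in WGBS of developmental nulls, and the series holds no other WGBS controls. A choice made against these controls would favour sites where they read low, so the order of the groups is only a description. Developmental nulls had 55.3% and 55.5% there. At the 134 tiles in those sites the hepatectomy nulls had 26.5%, 28.4% and 29.1%, against 24.4% and 22.7% in the hepatectomy controls, a difference of 4.45 points. The 2 assays read different CpGs of a site, and the difference between the experiments was not tested.

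Tile by tile, few positions passed a test. The moderated test of limma, with the spread taken from all RRBS groups and Benjamini-Hochberg adjustment at 0.05, called 9 tiles (0.00186%), of which 5 were higher in nulls (0.00104%) and 4 lower (0.000828%), while 22529 (4.67%) had an unadjusted p under 0.05. None of the 9 was in a FoxA site or an HNF6 region. Of the 482859 tiles only 155 lay in listed sites, 4432 in other FoxA sites and 56 in HNF6 regions. With 9 calls, their absence there says nothing about these classes. All 9 lost the call on the logit scale and when the spread came from only the 2 groups compared. When neighbouring tiles were joined into 60024 regions of at least 3 tiles, 0 regions passed by limma, and 2780 (4.63%) had an unadjusted p under 0.05. With only 1 control the counts of tiles were far higher, at 211 higher and 107 lower without control 1 and 209 and 186 without control 2, and regions numbered 33 higher and 4 lower without control 1.

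The largest of the 9 was a tile at chromosome 17, 35070901 to 35071000, 1245 bp from a FoxA site. It had 66.7%, 80% and 63.0% in nulls, against 11.1% and 4.17% in controls (62.2 points, SE 4.77, adjusted p = 0.00139 by limma). It was also the most variable of them among other mice: day 7 triple null controls had 0% to 8.33% and age series controls 59.0% to 66.7%, with 16.7% to 23.8% in developmental nulls. The 6 other tiles within 1000 bp averaged 63.2% in nulls and 36.2% in controls, and at 2 of them all nulls were above both controls.

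At the other 4 higher tiles the nulls were at or near full methylation, as were the other libraries, and the controls lay below. At chromosome 18, 80522601 to 80522700, the nulls had 95.5%, 100% and 100%, against 62.5% and 75% in controls (29.7 points, adjusted p = 0.00634 by limma), and the 22 other libraries had 85% to 100%. At chromosome 1, 183181601 to 183181700, the nulls had 100%, 94.7% and 100%, against 75% and 75% in controls. At chromosome 15, 35361401 to 35361500, all 3 nulls had 100%, against 82.4% and 75% in controls. At chromosome 4, 120593001 to 120593100, all 3 nulls had 100%, against 87.5% and 83.3% in controls. At each of these 4 tiles every other RRBS library with a value was above both hepatectomy controls, the lowest being 84.2% at the chromosome 1 tile.

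At the 4 lower tiles the nulls were at or near 0%, as were most other libraries, and the controls lay above. At chromosome 6, 46994701 to 46994800, the nulls had 2.78%, 0% and 3.45%, against 15.4% and 13.7% in controls (-12.5 points, adjusted p = 0.00206 by limma), and the 22 other libraries had 0% to 6.25%. At chromosome 14, 63742701 to 63742800, the nulls had 2.08%, 0% and 0%, against 13.3% and 13.7% in controls, with 0% to 5.56% in the others. At chromosome 14, 55405401 to 55405500, all 3 nulls had 0%, against 15% and 14.3% in controls, with 0% to 21.4% in 9 other libraries. At chromosome 10, 121885101 to 121885200, the nulls had 8.33%, 3.33% and 4.17%, against 25.0% and 22.7% in controls, and all 10 other libraries with a value had 0%. The region around the chromosome 6 tile, 46994701 to 46995000, had the smallest p of all regions, with a difference of -4.26 points and an adjusted p of 0.193 by limma.

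**Figure D5:**
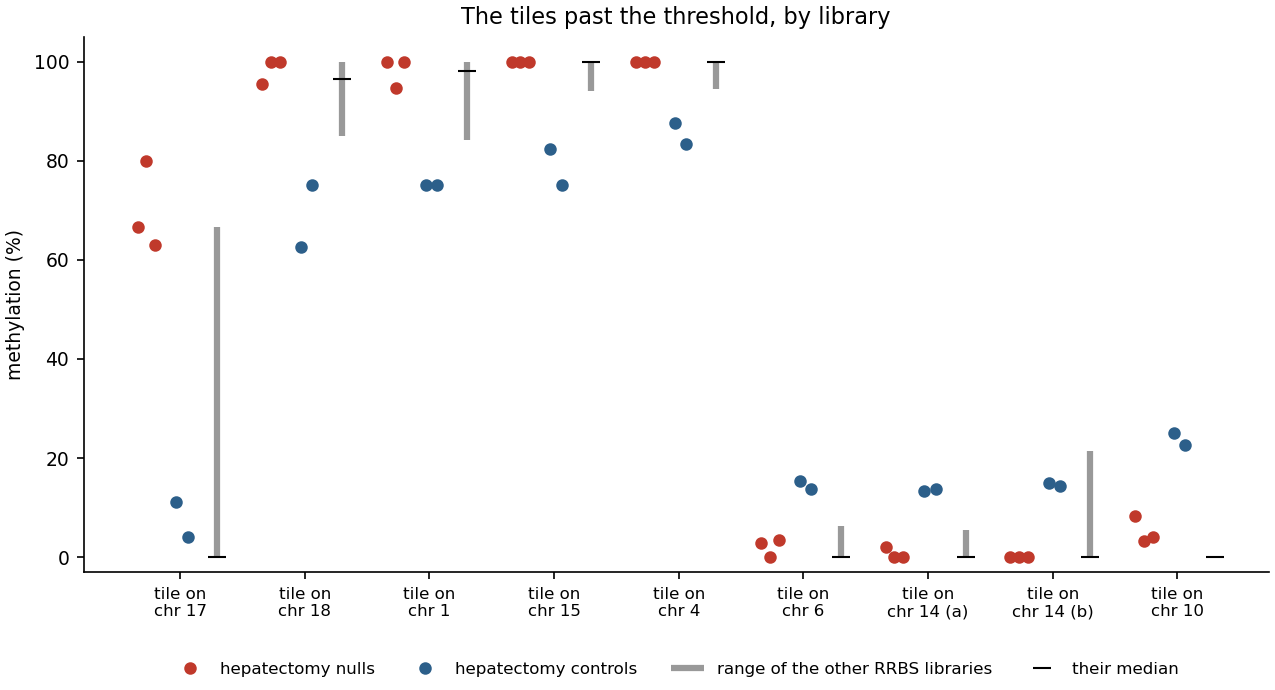
Methylation in percent at the 9 tiles past the threshold, with hepatectomy nulls (red), hepatectomy controls (blue) and the range and median of the other RRBS libraries with a value (grey bar, black mark). On chromosome 14, tile a starts at 63742701 and tile b at 55405401. At 7 of the tiles the hepatectomy controls lay outside the range of the other libraries and the nulls within 8.33 points of their median.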

How the data were processed

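RRBS levels were deposited by the authors as fractions of 0 to 1 per 100 bp tile, and the WGBS tables as fractions per 400 bp FoxA site. Both were multiplied by 100. Trim Galore 0.3.3, BSMAP 2.74 and the mm9 build are named for these libraries, per the submitters' processing notes, while the summary by tile is not given there. Coverage is not given, so no coverage minimum or interval could be applied. The 8 columns of group averages were not used. The authors' HNF6 peak lists and hyper-methylated list were used for positions only. No gene is named, because the gene tables at hand are of another assembly.

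Hepatectomy libraries had values at 560482 to 599014 tiles. Tiles and regions (at least 3 tiles, starts at most 300 bp apart) were tested on levels in percent with limma 3.58.1 (R 4.3.3), using its variance trend. The spread came from all 27 RRBS libraries in their groups, and the fit was tested on simulated data. Class means per library were compared by two-sided exact permutation in scipy 1.17.1 (Python 3.11.15).

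Tiles named in the text were those past the threshold, the 5 with the largest WGBS or age series difference in each class, and the 3 list tiles with the largest difference here in each direction. The members and lists were chosen with earlier results of these data known. Replicate numbers did not pair nulls with controls: deviations of same-numbered libraries correlated with r of -0.0441 and -0.0272 over 228083 tiles.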

Additional observations from a re-analysis of the deposited data

How the results depend on the processing

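The differences at list, gained and lost tiles kept their direction under every alternative run. With 1 library left out they were 3.34 to 4.95, 3.55 to 5.05 and -6.17 to -3.13 points. The groups did not overlap in these classes, so leaving out a library could change the size but not the sign. Over tiles with a value in all 27 libraries they were 2.70, 4.23 and -5.25 points, and the median over tiles was -7.04 points for the lost tiles. The values with the replicate block, the mean of same-numbered differences, were 3.62, 4.39 and -4.63 points. These equal the values without null replicate 3 and are no separate check. With no minimum developmental difference, gained and lost tiles differed by 2.34 and -0.742 points. For list tiles, counting tiles that overlap a site by 1 bp gave 3.21 points and averaging per site 4.57 points, both chosen after seeing the data.

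Near-zero differences changed sign. Leaving out 1 library gave -0.205 to 0.157 points over all tiles, -0.272 to 0.179 at distant tiles, -0.527 to 0.646 at other FoxA sites and -3.05 to 1.41 in HNF6 regions. Other FoxA sites were at -0.104 by the median and -0.0764 under the replicate block, and HNF6 regions at 0.452 with peaks in at least 2 of 3 lists.

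With only the 2 groups compared, 0 tiles were higher and 0 lower by limma (25886 at an unadjusted p under 0.05), and with the adult experiments 11 and 46. The logit scale gave 1 and 0, the 1 not among the 9 tiles named, no variance trend 5 and 2, levels of 5% to 95% 5 and 0, tiles in all 27 libraries 1 and 2, the replicate block 8 and 7, and a minimum of 20 points 4 and 0. Leaving out 1 library gave 7 to 211 higher and 7 to 186 lower. Regions numbered 0 to 33 higher and 0 to 4 lower, with 1 lower under the adult spread. The cause was not tested. Each of the 9 tiles kept its sign, but all 9 lost the call on the logit scale and with the spread of the 2 groups, and the chromosome 4 tile passed in 4 of 11 alternatives.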

Other observations

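Tiles that lost methylation with postnatal age were examined in the hepatectomy libraries, outside the gained and lost classes. At 2327 tiles the control of 20 days was at least 30 points above the control of each later age, with means of 73.5% at 20 days and 20.5% later, 1 library per age. At these tiles the hepatectomy nulls had 22.5%, 25.6% and 26.2%, against 24.9% and 20.7% in controls. The groups overlapped, with a difference of 1.92 points. All nulls were above both controls at 13.6% of them and below both at 7.35%, where all tiles had 8.69% and 9.0%. The 809 tiles that were at least 30 points higher at every later age had 72.1% ± 0.880 in nulls and 73.1% ± 0.584 in controls, with 10.4% above and 10.8% below.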
